A study of Homo sapiens with 20 samples.

Results

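The replication-dependent histone genes of the HIST1 cluster on human chromosome 6 were examined through their chromatin. Every CTCF peak and every H3K4me3 and H3K27ac region that overlapped chr6:25700000-26300000 or chr6:27050000-27900000 (hg19) was taken from every list, which gave 920 of the 790168 peaks and regions of the 20 libraries, together with the 55 HIST1 genes of these windows. The genes encode the linker histone H1 (6 genes) and the core histones H2A (12), H2B (15), H3 (10) and H4 (12). Taking neighbours less than 200000 bp apart together, the gene starts fell into 4 subclusters. The first is the pair HIST1H2AA and HIST1H2BA (starts at chr6:25726790-25727005), the second runs from HIST1H1A to HIST1H4H with 32 genes (chr6:26018015-26285762), the third from HIST1H2BJ to HIST1H2AH with 5 genes (chr6:27100574-27114885) and the fourth from HIST1H2BL to HIST1H2BO with 16 genes (chr6:27775707-27861203).

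The study asked what happens to CTCF binding and active chromatin once CTCF is depleted. LNCaP prostate cancer cells and IMR90 lung fibroblasts, each a single cell line, received 20 nM of a pooled CTCF siRNA or of a non-targeting siRNA pool, here called control siRNA, and were collected at 144 h. The study's methods describe a second round of transfection for LNCaP. For IMR90 they name Lipofectamine RNAiMAX as the reagent and do not mention a second round. LNCaP was profiled for CTCF, H3K4me3 and H3K27ac, and IMR90 for CTCF alone with a standard protocol and with a low-cell kit, with 2 libraries in each of the 10 conditions. The study's methods describe the standard ChIP-seq experiments as biological duplicates. For the low-cell libraries the sources used here do not say so, and the spread between those may be technical.

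Replication-dependent histone genes are transcribed in S phase, when new DNA has to be packaged, and their transcripts end in a stem-loop in place of a poly(A) tail. Many H2A and H2B genes stand head to head and share a promoter, so neighbouring genes are not independent observations, and 22 of the 55 starts had another member within 1000 bp. H3K4me3 marks active promoters and H3K27ac marks active promoters and enhancers. CTCF is a zinc-finger protein that binds a long, oriented motif and separates chromatin domains, and the histone subclusters alternate here with solute carrier, zinc-finger and tRNA genes.

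Several CTCF sites that bordered the subclusters carried recognisable CTCF motifs, which are shown because the later results return to these sites. Overlapping peaks of the 12 CTCF lists were merged into 47 sites, numbered along the chromosome. The CTCF core motif of 14 bases was searched on both strands within 100 bp of the summit with at most 2 mismatches. Each line below gives hg19 sequence 5′ to 3′ along the strand of the motif, and capitals mark the 14 bases of the motif. Site 8 lies 14.0 kb before the second subcluster (motif on the minus strand at chr6:26003499-26003528), and site 9 lies 91 bp past the 3′ end of the short gene HIST1H4B, 721 bp from its start (plus strand, chr6:26026665-26026694). Site 23 lies 5.17 kb before the third subcluster (plus strand, chr6:27095003-27095032), and sites 43 and 47 lie 11.7 kb before and 1.95 kb after the fourth (both on the minus strand, chr6:27763810-27763839 and chr6:27863449-27863478). Site 12, in the second subcluster between HIST1H1C and HFE, is shown for the H3K27ac called near it after CTCF siRNA (plus strand, chr6:26066297-26066326).
site 8: aaatttgcCCAGCAGAGGGAGGcctcgggt
site 9: tggcgctaCCGGCAGGGGGCGGttaaggac
site 12: gctttcagACACTAGATGACGCtccaaatc
site 23: cattatcgCCACAAGATGGCGAtagcgctt
site 43: aaaatactCCTGTAGAGGGCAGtacagttt
site 47: cttttttgCCACAAGATGGCAGgagaaggc
A motif was found at 21 of 27 LNCaP control sites of the windows, beside 73.4% of all 33413 LNCaP control sites, at 20 of 29 IMR90 control sites with the standard protocol, beside 71.5%, and at 13 of 17 with the low-cell kit, beside 79.3%. Both orientations occurred, with 10 plus and 11 minus in LNCaP. A match is a description of the letters and not a proof of binding.

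The promoters of the histone genes themselves are rich in the elements known for these genes. RefSeq promoters (GRCh38.p14, 250 bases before to 50 after the start) were found for 50 of the 55 genes, and all 50 matched hg19 exactly. TATAAA was present on either strand in 33 of 50, beside 12.0% of all 27305 promoters of the table, CCAAT in 43, beside 35.7%, and the octamer ATTTGCAT, the element through which OCT1 acts on H2B genes, in 22, beside 1.80%. The octamer was found in 12 of 15 H2B and 9 of 11 H2A promoters, which often are the same stretch read from either side, and in none of 10 H4 and none of 6 H1 promoters. CCAAT was in 15 of 15 H2B promoters and in 3 of 10 H4 promoters. Below, 30 bases around the octamer (capitals) are shown for a pair of H2B genes with both marks in every LNCaP library and for a pair with neither mark in any.
HIST1H2BC, both marks: tttcatacctcATTTGCATagctctgccca
HIST1H2BJ, both marks: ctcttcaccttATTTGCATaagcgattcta
HIST1H2BB, neither mark: ataaattccatATTTGCATaaaccccaccc
HIST1H2BI, neither mark: cagccagcctcATTTGCATatacacgaggt
Counted from the start, the octamer began at -123, -47, -120 and -45 in these genes, in the order shown. Among H2B promoters it was present in 7 of the 10 with H3K4me3 in all 4 libraries and in 4 of the 4 with none, so the letters were there in marked and unmarked promoters alike.

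Over the whole genome, LNCaP CTCF peaks numbered 38017 and 46364 after control siRNA and 3724 and 7730 after CTCF siRNA. The corresponding IMR90 lists held 35719, 36890, 19180 and 18539 peaks with the standard protocol and 20284, 19153, 5111 and 2021 with the low-cell kit. Histone lists held 36637 to 59920 H3K4me3 and 70099 to 99157 H3K27ac regions, and for both marks the CTCF siRNA lists were on average longer and covered more bases. The lists hold no read counts, and the study's list of libraries gives the first LNCaP CTCF siRNA library far fewer reads than the second. No RNA was measured in these lists, so here the depletion of CTCF is seen only in the peaks. The study itself measured the loss of CTCF mRNA and protein in LNCaP and of CTCF mRNA in IMR90. KLK3, which encodes prostate-specific antigen, had both marks at the promoter in all 4 LNCaP libraries. None of 6 fibroblast markers had H3K27ac in all 4, and 2 (COL1A1, TWIST1) had H3K4me3 in all 4. COL1A1 lacked H3K27ac in the first control library alone, and THY1 lacked H3K4me3 in the second control library alone. COL1A2 and PDGFRA had H3K4me3 in the second CTCF siRNA library alone. The IMR90 label could not be checked in this way.

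Most histone gene promoters carried both active marks in every LNCaP library, with control and with CTCF siRNA alike. A gene was counted as marked when a region lay within 1000 bp of its start, which can be a neighbour's region. With a region required over the start itself, the control mean fell from 39 to 36.5 genes for H3K4me3 and from 39 to 37 for H3K27ac. H3K4me3 was present in all 4 libraries at 37 of 55 genes, beside 63.8% of 19882 protein-coding genes, and H3K27ac at 39 of 55, beside 52.6%. H3K4me3 was in none of the 4 libraries at 16 genes, beside 29.9%, and H3K27ac in none at 13, beside 37.4%. In bulk samples, fewer cells with a mark and less of the mark per cell cannot be told apart. The 37 genes with H3K4me3 throughout also had H3K27ac throughout, beside 50.5% of protein-coding genes with both. Neither mark was called in any library at 13 genes, beside 26.0%. The shares with H3K27ac (70.9%) and with both marks (67.3%) were above the background and that with H3K4me3 (67.3%) was close to it. Neighbouring genes often share a region, and no test was made.

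**Figure D1:**
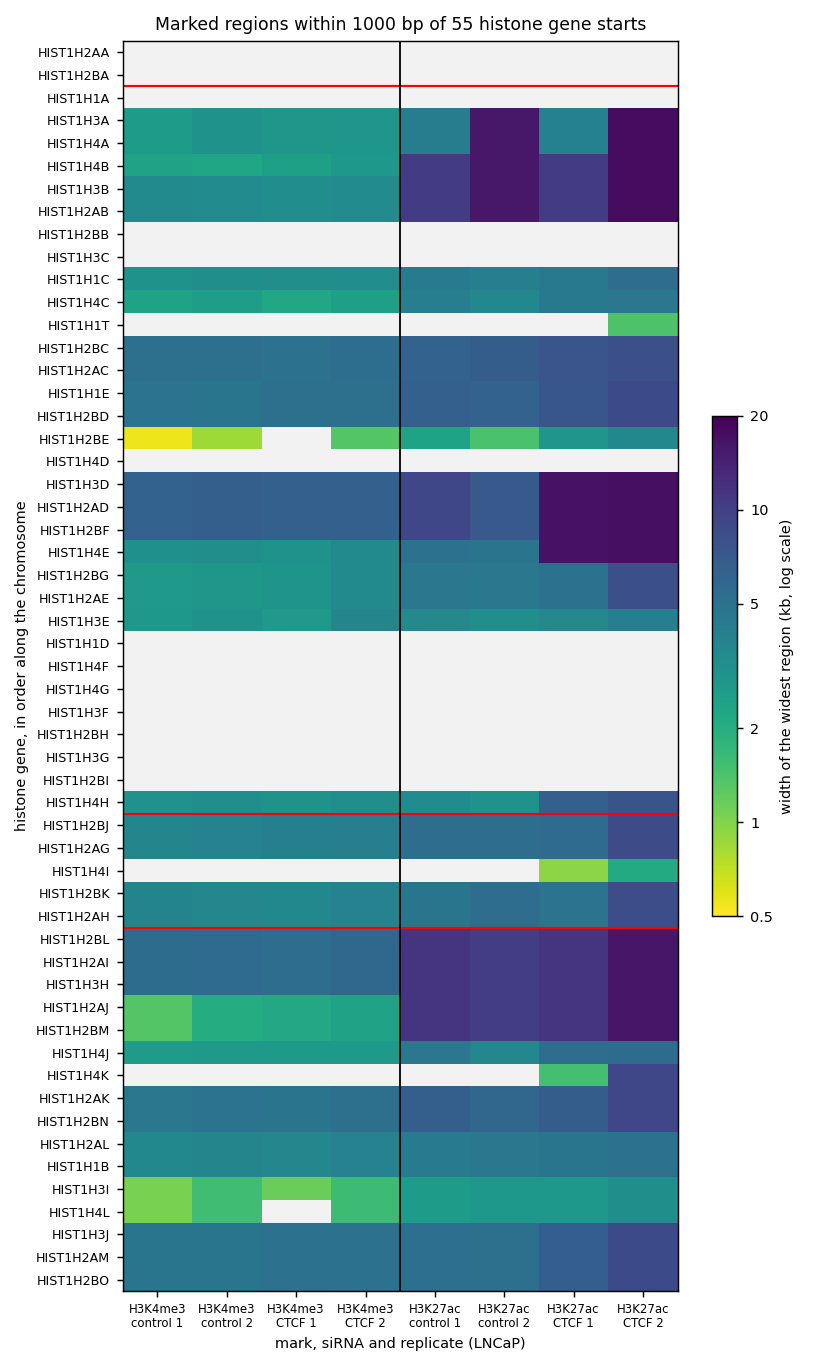
Width of the widest region (kb, log colour scale) within 1000 bp of each of the 55 histone gene starts, in order along the chromosome, for the 4 H3K4me3 and the 4 H3K27ac libraries of LNCaP, with grey where no region was called and red lines between the subclusters. The 37 genes with H3K4me3 in all 4 libraries are coloured throughout, and a run of 7 genes from HIST1H1D to HIST1H2BI is grey in all 8 libraries.

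The share of marked genes was highest for H2A, although differences between families were not tested. This family had H3K4me3 in all 4 libraries at 11 of 12 genes and HIST1H2AA as the exception. The counts were 7 of 10 for H3, 10 of 15 for H2B, 6 of 12 for H4 and 3 of 6 for H1, beside 63.8% of protein-coding genes. The marked H1 genes were HIST1H1B, HIST1H1C and HIST1H1E, and HIST1H1A, HIST1H1D and HIST1H1T had H3K4me3 in no library. Among the H4 genes, HIST1H4A, HIST1H4B, HIST1H4C, HIST1H4E, HIST1H4H and HIST1H4J had H3K4me3 in all 4 libraries and HIST1H4D, HIST1H4F, HIST1H4G, HIST1H4I and HIST1H4K in none. HIST1H4L lay between. The H3K4me3 region of its neighbour HIST1H3I came within 1000 bp of the HIST1H4L start in both controls and the second CTCF siRNA library.

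The unmarked genes were grouped along the chromosome. HIST1H2AA and HIST1H2BA, known for expression in testis, make up the first subcluster, and a stretch of 42.7 kb around them (chr6:25704051-25746750) held no region of either mark in any library. HIST1H1A, at the very start of the second subcluster, HIST1H2BB with its neighbour HIST1H3C, and HIST1H4D had no region either. The longest run was HIST1H1D, HIST1H4F, HIST1H4G, HIST1H3F, HIST1H2BH, HIST1H3G and HIST1H2BI, 7 genes in a row (first and last start chr6:26235215 and chr6:26273159). The first 5 of them lie in a stretch of 30.4 kb (chr6:26226501-26256900) without any region of either mark in any library, and no LNCaP control CTCF site lies in it. On either side, HIST1H3E (2800, 3000, 2750 and 3750 bp of H3K4me3 in control 1 and 2 and CTCF siRNA 1 and 2) and HIST1H4H (3100, 3300, 3000 and 3300 bp) were marked in all libraries. The last 2 subclusters were marked nearly throughout, with H3K4me3 in all 4 libraries at 4 of 5 and 14 of 16 genes, against 19 of 32 in the second and 0 of 2 in the first.

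Because the authors discarded reads that align to several places, genes with near-identical copies could lack regions for that reason alone. The share of 50-base words within 1000 bp of a start that occur once in hg19 was therefore counted. It was 77.7% to 100% (median 98.1%) for the 16 genes without H3K4me3 and 76.4% to 100% (median 98.6%) for the 37 with H3K4me3 in all 4 libraries. The lowest values of each set belonged to HIST1H4K (77.7%, no H3K4me3) and HIST1H4J (76.4%, H3K4me3 in all 4), neighbours in the fourth subcluster. Unmarked and marked histone genes thus overlapped in this count. It took exact words only, whereas the authors' alignment allowed mismatches, so it can overstate how many reads could be placed. Whether near-identical copies account for missing regions was not tested.

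H3K4me3 at the histone genes was nearly the same with control and CTCF siRNA. It was called at 39 and 39 genes in the control and at 37 and 39 in the CTCF siRNA libraries, a difference of -1 (exact permutation test, two-sided, p = 1, 2 against 2 libraries). With 2 libraries per group this test cannot go below 0.33, so none of the comparisons of numbers per library here could pass a threshold of 0.05. No histone gene had H3K4me3 in both libraries of one treatment and in neither of the other, beside 0.830% of protein-coding genes gained and 0.0754% lost. The 2 genes behind the difference were HIST1H2BE and HIST1H4L. HIST1H2BE had 550 and 850 bp in the controls and none and 1350 bp after CTCF siRNA. HIST1H4L lay beside the region of its neighbour HIST1H3I (chr6:27838951-27840600), which was called in all 4 libraries and covered the HIST1H4L start in none. That region came within 1000 bp of the HIST1H4L start in every library but the first CTCF siRNA library. Both calls differed between the CTCF siRNA replicates and are not a change between treatments.

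The widths of H3K4me3 regions at histone genes were likewise close. The widest, at HIST1H3D, HIST1H2AD and HIST1H2BF (chr6:26194651-26201150), measured 6300 and 6500 bp in the controls and 6450 and 6450 bp after CTCF siRNA, so the groups overlapped. The region at HIST1H2BL, HIST1H2AI and HIST1H3H (chr6:27774051-27779800) measured 5400, 5500, 5350 and 5750 bp in the same order. Of the 21 regions at histone genes that were present in all 4 libraries, 7 covered more bases in both CTCF siRNA libraries than in either control and 0 covered fewer, beside 16.4% and 5.89% of such regions in the genome. The median ratio of mean covered bases, CTCF siRNA over control, was 1.03 at histone genes and 1.04 over the genome.

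**Figure D2:**
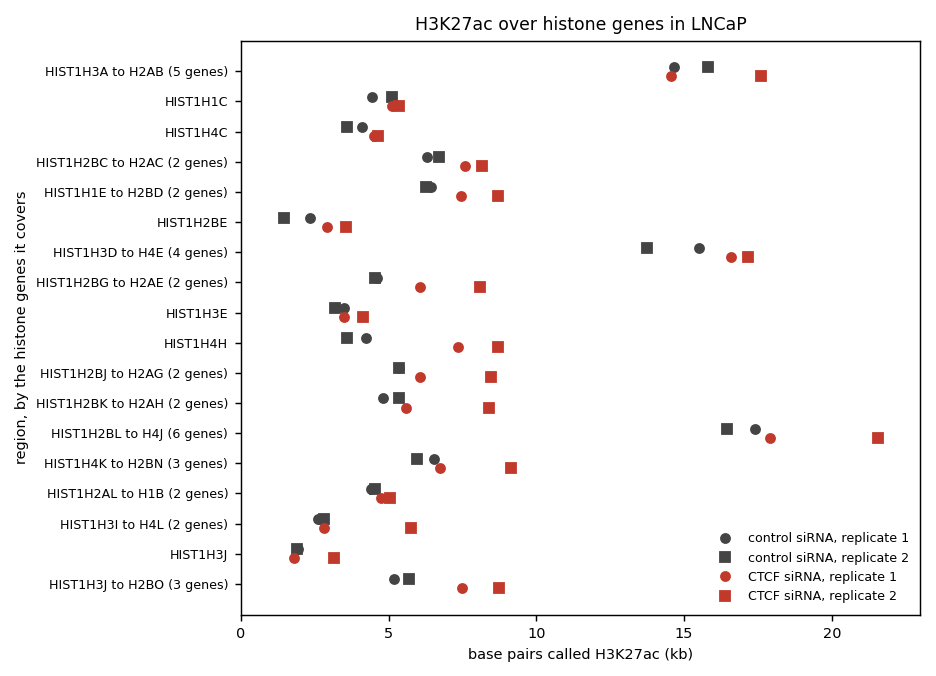
Base pairs called H3K27ac (kb) in each LNCaP library for the 18 regions over histone genes that were present in all 4 libraries, with circles for replicate 1, squares for replicate 2, grey for control siRNA and red for CTCF siRNA. In 13 of 18 regions both red points lie to the right of both grey points, and the red squares (CTCF siRNA replicate 2) lie farthest right.

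H3K27ac was called in broader blocks than H3K4me3, and these blocks were wider after CTCF siRNA, as they were across the genome. The median width of merged regions over histone starts was 8125 bp for H3K27ac and 3450 bp for H3K4me3, beside 3150 and 3250 bp over all protein-coding starts that had a region. The widest merged H3K27ac block spanned 6 genes from HIST1H2BL to HIST1H4J (chr6:27772751-27794550, 21800 bp), the next 5 genes from HIST1H3A to HIST1H2AB (chr6:26019601-26037250, 17650 bp) and the next 4 genes from HIST1H3D to HIST1H4E (chr6:26191051-26208200, 17150 bp). The widest was called in pieces in every library, as 3 and 4 regions in the controls and 3 and 2 after CTCF siRNA, while the second was a single region of 15800 bp in control 2 and of 17600 bp in CTCF siRNA 2. Of the 18 H3K27ac regions over histone genes found in all 4 libraries, 13 covered more bases in both CTCF siRNA libraries than in either control and 0 covered fewer, beside 46.9% and 4.10% of such regions in the genome. The median ratio, CTCF siRNA over control, was 1.27 at histone genes and 1.20 over the genome.

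A joining of neighbouring regions in both CTCF siRNA libraries was seen at HIST1H3D to HIST1H4E and at no other histone block. Elsewhere regions were also split. At HIST1H2BG, HIST1H2BJ and HIST1H2BK each control had 1 region and CTCF siRNA 1 had 2. How often regions joined over the genome was not counted. The controls had 3 and 4 separate H3K27ac regions there, with the widest at HIST1H3D of 9100 and 7100 bp and at HIST1H4E of 5050 and 4750 bp. Each CTCF siRNA library had 1 region over the whole block, of 16600 and 17150 bp. The covered bases differed less, with 15500 and 13750 bp in the controls and 16600 and 17150 bp after CTCF siRNA, and the groups did not overlap. At HIST1H4H, the covered bases were 4250 and 3600 bp in the controls and 7350 and 8700 bp after CTCF siRNA, the largest ratio among the histone regions (2.04). At HIST1H2AL and HIST1H1B they were 4400, 4550, 4750 and 5050 bp in the same order, a small difference without overlap.

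The total width in the windows followed the whole lists. H3K27ac covered 212 and 191 kb of the windows in the controls and 248 and 320 kb after CTCF siRNA (201 ± 14.7 and 284 ± 51.0 kb, mean ± SD, n = 2 each), a ratio of 1.41, beside 1.42 for the whole lists. H3K4me3 covered 173 and 207.5 kb and then 204 and 239 kb, a ratio of 1.16, beside 1.18. The number of H3K27ac regions in the windows was 83 and 77 in the controls and 102 and 103 after CTCF siRNA (exact permutation test, two-sided, p = 0.33), and that of H3K4me3 regions 74 and 87 against 83 and 93 (p = 0.67 by the same exact test). With all H3K27ac lists shortened to the shortest by keeping the lowest scores, the difference of 22.5 regions fell to 4. The meaning of the score is not given.

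**Figure D3:**
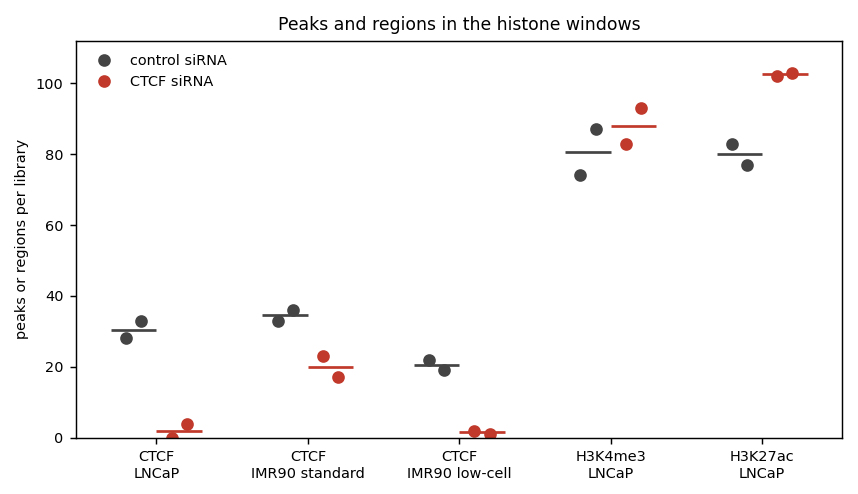
Number of peaks or regions of each library in the histone windows, with grey points for the 2 control siRNA libraries, red points for the 2 CTCF siRNA libraries and bars for their means. CTCF peaks numbered 28 and 33 and then 0 and 4 in LNCaP, 33 and 36 and then 23 and 17 in IMR90 with the standard protocol, and 22 and 19 and then 2 and 1 with the low-cell kit, while H3K27ac regions numbered 83 and 77 and then 102 and 103.

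H3K27ac within 1000 bp of the start was called with CTCF siRNA alone at few histone genes, H4 genes without H3K4me3. H3K27ac was called at 39 and 39 genes in the controls and at 41 and 42 after CTCF siRNA (exact permutation test, two-sided, p = 0.33). HIST1H4I (start chr6:27107061) had no H3K27ac in the controls and 950 and 2100 bp after CTCF siRNA, in a region that covered its start. HIST1H4K (start chr6:27799338) had no region within 1000 bp of its start in the controls and regions of 1500 and 9150 bp within that distance after CTCF siRNA, neither of which reached the start itself. Both belonged to merged regions that a control library also had, farther from the start. The first (chr6:27796451-27798800) measured 650 bp and none in the controls and 1500 and 2350 bp after CTCF siRNA. The second, of 9150 bp, was that of its neighbours HIST1H2AK and HIST1H2BN, which measured 6550 and 5950 bp in the controls and reached farther towards HIST1H4K in that library. These were 2 of 55 genes, beside 1.42% of all protein-coding genes, and 2 of the 16 without H3K4me3, beside 1.36% of 5951 such genes. No histone gene lost H3K27ac in both libraries, beside 0.362%. HIST1H1T, the linker histone of testis, had 1400 bp in the second CTCF siRNA library alone. With all lists shortened to the shortest by keeping the lowest scores, HIST1H4I was called in 0 of 4 libraries. HIST1H4K was still called in both CTCF siRNA libraries and neither control. The meaning of the score is not given, and whether list length accounts for the call at HIST1H4I was not tested.

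Over the windows as a whole, most merged regions were present in all 4 libraries, and few were particular to a treatment. Of 88 H3K4me3 regions seen in at least 2 libraries, 69 were in all 4 (78.4%, beside 58.9% of the genome's regions), 4 were called with CTCF siRNA alone, in both its libraries (4.55%, beside 6.44%) and 0 with control siRNA alone (beside 2.55%). Of 87 H3K27ac regions, 61 were in all 4 (70.1%, beside 56.9%), 7 in both CTCF siRNA libraries alone (8.05%, beside 13.2%) and 0 in both controls alone (beside 1.85%). The 4 H3K4me3 regions lay 13238 bp or more from the nearest protein-coding gene, and of the 7 H3K27ac regions 1 covered a histone gene, HIST1H4I.

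CTCF binding around the histone genes was lost in LNCaP at every control site by the definition used. A control site is a merged peak present in both control libraries, a persistent site is one that each CTCF siRNA library still shows, and every other control site is called lost. Values given for a site are the fold enrichment of its peak over local background within that library, which is not scaled between libraries. LNCaP had 28 and 33 peaks in the windows after control siRNA and 0 and 4 after CTCF siRNA (exact permutation test, two-sided, p = 0.33). With all 4 lists shortened to the shortest, which leaves a mean of 0.5 control peaks in the windows, the difference of -28.5 became -0.5. Of the 27 LNCaP control sites, 27 were lost, beside 90.7% in the genome, and 0 were persistent, beside 9.26% of 33413 in the genome and 5.42% of the 27865 sites with fold enrichment in the same range. Their strength was ordinary, with a median of 13.4 beside 12.5, and 0 of 27 exceeded the genome's 90th percentile of 26.5. The first CTCF siRNA library kept 0 of 27 (10.0% in the genome) and the second 3 of 27 (20.6%). The first is the library with few reads, and without it 3 sites would be persistent.

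**Figure D4:**
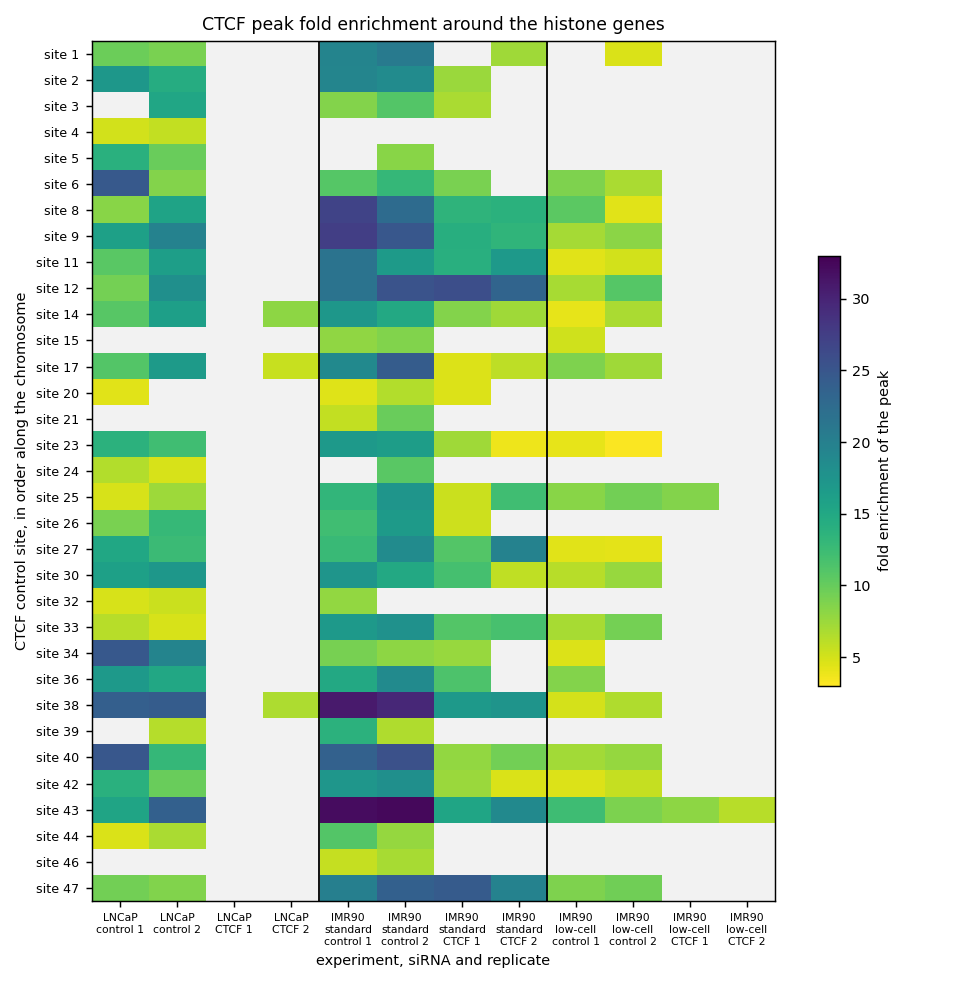
Fold enrichment of the CTCF peak (colour) at each of the control sites of the windows, in order along the chromosome, in the 12 CTCF libraries, with grey where no peak was called. The LNCaP CTCF siRNA columns hold 3 peaks in all, while the IMR90 standard CTCF siRNA columns keep 16 sites in both libraries.

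The 3 LNCaP sites with a peak left lay in the second subcluster and between the third and the fourth. Site 38 (chr6:27719763-27720426), 54830 bp from HIST1H2BL, the nearest protein-coding gene, had 23.9 and 24.3 in the controls, the strongest mean of the windows, and 6.72 in the second CTCF siRNA library. Site 14 (chr6:26097487-26098039), in the UTR of HFE, the iron-regulating gene inside the second subcluster, had 10.8 and 16.0 and then 8.05. Site 17 (chr6:26175536-26176197), 7791 bp before HIST1H2BE, had 11.1 and 16.6 and then 5.50. The second and the third strongest lost sites kept no peak, site 34 (chr6:27577007-27577474) with 24.8 and 19.5 and site 43 (chr6:27763571-27764042) with 15.5 and 23.8. One further peak after CTCF siRNA, of 6.72 at site 29 (chr6:27203219-27203419), lay where no control library had a peak.

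With the standard protocol, IMR90 kept a peak at most of its sites. The windows held 33 and 36 peaks after control siRNA and 23 and 17 after CTCF siRNA (exact permutation test, two-sided, p = 0.33). Of 29 control sites 16 were persistent (55.2%, beside 51.4% in the genome) and 13 lost, beside 48.6%. Among the lost ones, 8 had a peak in 1 CTCF siRNA library and 5 in none. The median mean control fold enrichment was 20.3 at the 16 persistent and 9.74 at the 13 lost sites. The cell lines were profiled in separate experiments, and the study reported a less complete loss of CTCF mRNA in IMR90 than in LNCaP. The difference in retention between the lines was not tested. With all 4 lists of the experiment shortened to the shortest, the difference of -14.5 peaks became -1.5, and 16 of the 20 control sites then left were persistent.

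With the low-cell kit, IMR90 kept a peak at few of its sites. The windows held 22 and 19 peaks after control siRNA and 2 and 1 after CTCF siRNA (exact permutation test, two-sided, p = 0.33). With all 4 lists shortened to the shortest, no control peak was left in the windows and the difference of -19 peaks became 1. Of 17 control sites 1 was persistent, site 43, with 12.3 and 8.92 in the controls and 8.11 and 6.23 after CTCF siRNA, beside 10.9% in the genome, and 16 were lost, beside 89.1%. Site 25 kept a peak in 1 library, with 8.57. In the same cell line, 16 of 29 sites were thus persistent with one protocol and 1 of 17 with the other, a difference that was not tested, and the low-cell lists were shorter after both siRNAs.

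The nearest control site before each of the 4 subclusters, and that after the fourth, was bound in both cell lines. Distances are to the outermost gene start. IMR90 values here and in the next paragraph are from the standard protocol unless the low-cell kit is named. Site 8 (chr6:26003276-26004019), the last before the second subcluster, had 8.32 and 15.6 in LNCaP controls and 26.9 and 22.5 in IMR90 standard controls, and IMR90 kept 13.5 and 13.8 after CTCF siRNA. Site 23 (chr6:27094771-27095401), before the third subcluster, had 13.7 and 12.1 in LNCaP and 16.8 and 16.2 in IMR90, which kept 7.27 and 3.76. Site 43, before the fourth subcluster, was the strongest IMR90 site of the windows with 32.0 and 32.3, and 15.4 and 18.8 after CTCF siRNA. Site 47 (chr6:27863150-27863915), after the fourth subcluster and 1480 bp from HIST1H2BO, had 20.0 and 23.8 and then 24.4 and 19.7 in IMR90, so that the 2 treatments overlapped, as they did at sites 11, 12 and 27, and 9.41 and 8.73 in LNCaP. Sites 8, 23, 43 and 47 were each lost in LNCaP and persistent in IMR90 with the standard protocol. With the low-cell kit, sites 8, 23 and 47 were lost in IMR90 as well, and site 43 was persistent.

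Not every border looked like that. After the third subcluster, the nearest LNCaP site was site 24 (chr6:27125653-27126023, 6.49 and 4.81), which IMR90 had in 1 control library, and the nearest site of both lines was site 25 (chr6:27129628-27130073, 4.79 and 7.42 in LNCaP and 13.2 and 17.3 in IMR90 controls), 14.7 kb beyond HIST1H2AH. Before the first subcluster, site 2 (chr6:25720614-25721068), 5.72 kb away, was bound in both lines. It had 17.2 and 14.5 in LNCaP and 19.3 and 18.5 in IMR90. IMR90 kept a peak in 1 library, so the site was lost in both lines. After it the nearest site was site 3, 61.8 kb away, in IMR90 and site 4, 164 kb away, in LNCaP. After the second subcluster no control site of any experiment lay within the window, which ends at chr6:26300000.

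Inside the subclusters, LNCaP had 6 control sites, IMR90 10 with the standard protocol and 5 with the low-cell kit. CTCF was within 1000 bp of the start in both controls at 1 of 55 histone genes in LNCaP, beside 9.96% of protein-coding genes, at 7 of 55 in IMR90 with the standard protocol, beside 9.67%, and at 1 of 55 with the low-cell kit, beside 6.83%. The LNCaP and the low-cell gene were both HIST1H4B. Its site is site 9 (chr6:26026486-26027032), with 16.0 and 19.7 in LNCaP and 27.4 and 24.8 in IMR90 standard controls. With the standard protocol, IMR90 kept 14.2 and 13.4 after CTCF siRNA. With the low-cell kit, IMR90 had 6.99 and 8.18 in the controls and no peak after CTCF siRNA. In LNCaP the peak was lost, and the H3K4me3 region at HIST1H4B measured 2400 and 2300 bp in the controls and 2450 and 2800 bp after CTCF siRNA.

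Of the 29 IMR90 control sites 23 overlapped a LNCaP control site (79.3%, beside 79.4% in the genome) and 23 of the 27 LNCaP sites overlapped an IMR90 site (85.2%, beside 72.5%). The 6 sites found only in IMR90 by this definition had a mean control fold enrichment of 5.46 to 10.1 (median 8.06), against 8.61 to 32.2 (median 17.6) at the shared ones. None of the 6 was persistent, beside 9.94% of such sites in the genome, and 16 of the 23 shared sites were, beside 62.2%. Of the 6, 4 overlapped coding exons of histone genes, and the share of such sites over coding exons in the genome was not counted. These were site 15 at HIST1H4C (chr6:26104212-26104601, 8.02 and 8.63), site 20 at HIST1H2AE (chr6:26217298-26217608, 4.42 and 6.49), site 21 at HIST1H3F (chr6:26250394-26250676, 5.80 and 9.81) and site 46 at HIST1H2BN (chr6:27806211-27806479, 5.59 and 6.93). A motif with at most 2 mismatches was found at site 20 and not at the other 3, whose closest match had 4 or 5. Site 21 lies in the run of histone genes without active marks in LNCaP, whose marks in IMR90 were not measured. Site 20 also had a peak of 4.37 in 1 LNCaP control library. The remaining IMR90 sites of this kind were site 3 in an intron of SLC17A1 and site 39, 53092 bp from HIST1H2BL, with peaks of 15.3 and 6.30 in 1 LNCaP control library.

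The 4 LNCaP sites without an IMR90 control site were sites 4, 5, 24 and 32. Their mean control fold enrichment was 5.14 to 11.9, and 3 of them had a peak in 1 IMR90 standard control library. Site 4 (chr6:25890747-25891050, 4.99 and 5.76), 16275 bp from SLC17A3, had none in any IMR90 library.

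Many CTCF sites of the windows lay in active chromatin in LNCaP. Of the 27 control sites, 14 overlapped an H3K4me3 region present in all 4 libraries, beside 12.5% of LNCaP control sites in the genome, and 12 an H3K27ac region of all 4, beside 16.7%. What became of the marks at these sites cannot be read from these counts, since the regions were chosen for being called in all 4 libraries.

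**Figure D5:**
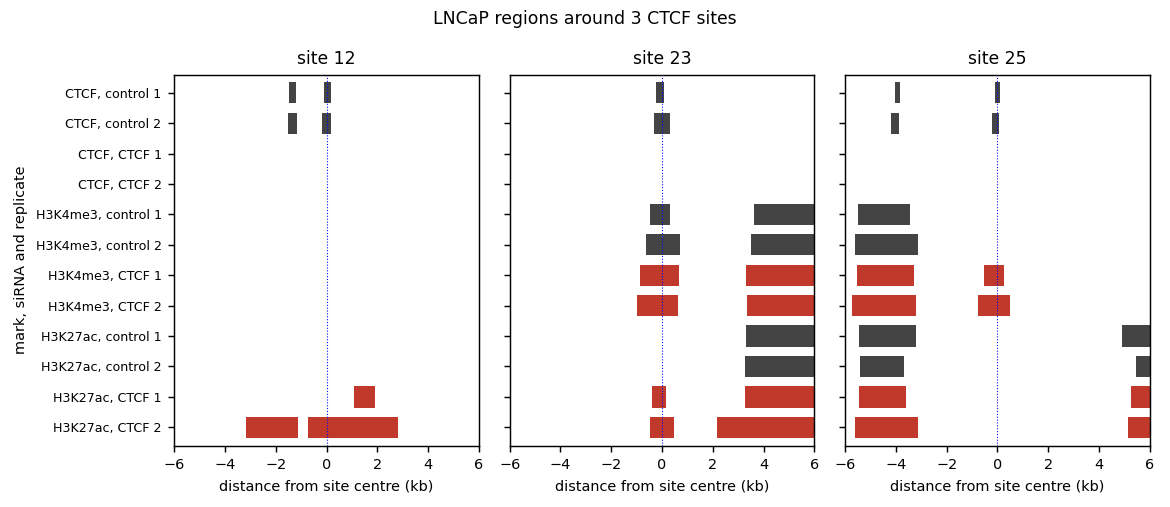
CTCF peaks and H3K4me3 and H3K27ac regions of the LNCaP libraries, drawn as bars by distance (kb) from the centre of sites 12, 23 and 25, with grey for control siRNA and red for CTCF siRNA. At each site the CTCF peak is drawn in the 2 control libraries only, and a region near the centre appears in the CTCF siRNA libraries for H3K27ac at sites 12 and 23 and for H3K4me3 at site 25.

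At 3 lost LNCaP sites a merged region was called with CTCF siRNA, in each of its libraries, and in no control. At site 23, before the third subcluster, H3K27ac regions of 550 and 950 bp lay over the site after CTCF siRNA, where H3K4me3 was present in all 4 libraries. At site 25, after the same subcluster, H3K4me3 regions of 800 and 1250 bp lay over the site. At site 12 (chr6:26066010-26066540), in the second subcluster, the merged H3K27ac region overlapped the site, but the first library's region of 850 bp lay 1076 bp from the site's centre and only the second library's region of 3550 bp covered it. These were 2 of the 7 H3K27ac regions gained in the windows, beside 5.17% of 11002 such regions in the genome, and 1 of 4 H3K4me3 regions, beside 10.1% of 2941. The counts are too small to set the windows apart, and the remaining 24 of the 27 lost sites had no such region.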

How the data were processed

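CTCF, H3K4me3 and H3K27ac ChIP-seq lists of 20 libraries were used. For alignment to hg19 the authors used Bowtie, discarding multi-mapping and duplicate reads, and for the low-cell libraries BWA and molecular identifiers. They called CTCF peaks with MACS2 at an FDR of 0.05 and histone regions with PeakRanger, per library and without pooling. In the deposited CTCF lists the authors give each peak's fold enrichment, a ratio to local background, and its p-value and q-value on a −log10 scale. The deposited histone regions carry a score whose meaning is not given, used here only to rank regions. Shortened histone lists kept the lowest scores, a choice that the sources do not settle. Read depth is not in the lists. A lost peak is one that fell under a threshold.

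From these lists, overlaps of at least 1 bp were counted on chromosomes 1 to 22, X and Y. For each mark, overlapping regions of the 4 libraries were joined, and those seen in at least 2 were used. Gene starts came from GENCODE release 44 on hg19 for 52 members and from an exact match of the RefSeq promoter for 3 (HIST1H2BF, HIST1H2BG, HIST1H4F). Background shares count 19882 protein-coding genes, all control sites or all merged regions. Numbers per library were compared by exact permutation tests, tested on simulated lists with known answers. The members, lists and rule for named genes (all 55 genes by family and subcluster, those that differed between treatments or replicates, sites at subcluster ends, persistent sites, sites of 1 cell line, the strongest lost sites and the widest regions) were chosen with earlier results of these data known. Alternatives were a q-value of 0.001, lists of equal length, 50% overlap, either library, other promoter windows, merging within 1000 bp, the replicate number as a block and leaving out each replicate. Computations used Python 3.11.15, numpy 2.4.6, pandas 2.3.3 and pysam 0.24.0. The counts over the list of prostate luminal markers are not reported here.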

Additional observations from a re-analysis of the deposited data

How the results depend on the processing

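Peak lists without reads cannot show how far binding fell, and lists of unequal length make counts uneven. Of 107 alternatives over 16 results, 87 kept the result, 17 moved it and 3 reversed it. A difference in numbers per library counted as kept unless its sign reversed, however much it shrank. The replicate block, which leaves such differences the same by construction, is among those kept. So are the LNCaP persistent sites with shortened lists, where no control site was left in the windows and the count could only be 0. The tally therefore does not measure how stable the sizes were. With every list shortened to the shortest, the low-cell difference in CTCF peaks reversed from -19 to 1 and its persistent sites went from 1 to 0 (none of its control sites was left in the windows), and the LNCaP difference in CTCF peaks became -0.5, since the shortest lists hold few peaks of these windows, while that in H3K27ac regions went from 22.5 to 4 and in histone genes with H3K27ac from 2.5 to 1. Counting a site as persistent from 1 library per treatment, 3 LNCaP and 2 low-cell sites were persistent. With the 50% lowest scores, the difference in histone genes with H3K4me3 reversed from -1 to 0.5 and that at HIST1H2BE from -1 to 1 library. The cause was not tested.

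Leaving out each replicate gave 0 to 3 persistent sites in LNCaP (3 without CTCF siRNA replicate 1), 16 to 23 in IMR90 standard and 1 to 2 in IMR90 low-cell (2 without CTCF siRNA replicate 2). Differences in CTCF peaks ranged from -31 to -26 in LNCaP, -17.5 to -11.5 in IMR90 standard and -20.5 to -17.5 in IMR90 low-cell, in H3K4me3 regions from 1 to 14, in H3K27ac regions from 19.5 to 25.5, in histone genes with H3K4me3 from -2 to 0 and with H3K27ac from 2 to 3. Shared control sites numbered 24 to 25, against 23. The labels do not say what a replicate number stands for, and lists of 2 libraries give no correlation of deviations. With the replicate block (exact sign-flip permutation test, smallest p 0.5), the differences were the same by construction, at p = 0.5 for CTCF peaks, regions of both marks and histone genes with H3K27ac, and p = 1 for histone genes with H3K4me3. H3K27ac at HIST1H4I, tried after its value was seen, was absent with shortened lists and with the lowest scores, and at HIST1H4K with a region required over the start itself.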

Other observations

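Histone genes outside the chromosome 6 windows included some that the alignment could not show. Of 14 annotated replication-dependent histone genes on other chromosomes, 9 had H3K4me3 and H3K27ac in all 4 LNCaP libraries, beside 50.5% of protein-coding genes, and 5 had neither mark in any. Of those 5, HIST2H3A, HIST2H3C, HIST2H4A and HIST2H4B lie in near-identical copies, and 0% of the 50-base words around their starts occur once in hg19, so these genes cannot show a mark and their absence says nothing about it. The last, HIST3H3, a testis histone gene, had 84.5% of such words. The replacement histone genes, which are expressed outside S phase, had both marks in all 4 libraries at 9 of 9 genes, beside the same 50.5%. Of 10 genes for factors of histone gene transcription and histone mRNA processing, 10 had H3K4me3 in all 4 libraries, among them NPAT and SLBP, beside 63.8%, and 9 had H3K27ac in all 4, beside 52.6%. LSM11, a component of the U7 particle that cuts histone transcripts, had H3K27ac in the second CTCF siRNA library alone.

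The other genes of the windows were marked or unmarked within 1000 bp of the annotated start. TRIM38 (H3K4me3 widths of 2400, 2500, 2300 and 2550 bp in control 1 and 2 and CTCF siRNA 1 and 2), HFE (1600, 1950, 1750 and 1950 bp), ZNF391 (2550, 2650, 2500 and 2800 bp) and ZNF184 (3750, 3900, 3800 and 4100 bp) had both marks throughout. SLC17A1 and SLC17A3, solute carriers of kidney and liver, PRSS16, a thymus protease, and the olfactory receptor gene OR2B2 had neither mark in any library within that distance. Farther into the gene, PRSS16 had H3K4me3 (chr6:27217801-27220700) and H3K27ac (chr6:27218501-27220400) over a coding exon and SLC17A3 had H3K27ac in an intron (chr6:25863151-25864500), each in all 4 libraries. SLC17A2 had H3K27ac of 3350, 3200, 2550 and 2750 bp near its start and, within that region, H3K4me3 of 1050, 1200, 850 and 900 bp that lay more than 1000 bp from the start. SCGN, whose start lies outside the window, had H3K4me3 of 650 and 1300 bp after CTCF siRNA and none in the controls. Of the 88 H3K4me3 regions of the windows, 52 had no start of any gene in the GENCODE annotation within 1000 bp, an annotation used here without tRNA genes, so regions over those could not be assigned. Among them was the second widest, of 6100 bp (chr6:27260751-27266850), between PRSS16 and POM121L2.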
